A study of Rattus norvegicus with 6 samples.

Results

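The clustered protocadherins are cell-surface adhesion proteins of the cadherin superfamily whose genes lie in alpha, beta and gamma clusters in tandem on rat chromosome 18. The members were all rows of the deposited count table whose gene name is Pcdha, Pcdhb, Pcdhga, Pcdhgb or Pcdhgc followed by a number, which gave 38 of 33566 rows. They were 3 alpha, 17 beta and 18 gamma rows. The family was chosen by its measured fold changes between Hcy and Veh cells, so its values in that contrast, counts past a threshold included, are given as a description and not as evidence about the family. The cells were primary rat brain microvascular endothelial cells, isolated from the cortex of Sprague-Dawley pups of 18 to 22 days and used after a single passage. The Hcy group (n = 3 libraries) received 100 µM homocysteine, a sulphur-containing amino acid, for 24 h, and the Veh group (n = 3) received the solvent, water. The labels give 100 µM as the dose, while the treatment protocol also speaks of a prepared solution of 50 µM. The series describes the replicates as biological, but does not say whether they came from separate isolations, so the spread between them may be partly technical. RNA was selected by its poly(A) tail and reads were counted per gene.

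Each alpha or gamma protein is made from a large variable exon, which encodes the extracellular cadherin repeats, the membrane span and a short cytoplasmic stretch, spliced to a set of constant exons at the end of the cluster that all its proteins share. Beta genes have a single coding exon and no shared constant exon. Every variable exon has a promoter of its own, and most such promoters carry a conserved sequence element at which the insulator protein CTCF binds. In neurons a cell switches on a small, largely random set of promoters together with the C-type genes, and like isoforms on facing membranes bind each other, which lets neurites of the same cell recognise and avoid each other. Gamma protocadherins also support neuron survival and synapse formation, and far less is known of the family in endothelium.

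RefSeq promoter sequences (GRCr8, 250 bases before to 50 after the gene start) were found for 28 of the 37 member symbols, in 29 windows, since Pcdhga4 has more than a single entry. Its later window, from 29782297, lies beyond that of Pcdhga5, from 29770690, while the Pcdhga4 row lies before the Pcdhga5 row. That window is thus not matched to the counted row, but is kept in the counts of gamma windows below. Promoters are shown because each variable exon starts from a promoter of its own, and the letters were chosen after the sequences had been read. Capitals mark CGCTG on the strand of the gene, and all sequences lie on the + strand of chromosome 18. The first is the promoter of Pcdhb20, the beta member with the most counts, at chr18:29485638-29485937. The second, at chr18:29883995-29884294, is that of Pcdhgc3, whose row had the most gamma counts but may hold other exons as well. The third, at chr18:28876919-28877218, is that of Pcdha4, the single alpha symbol matched.
Pcdhb20: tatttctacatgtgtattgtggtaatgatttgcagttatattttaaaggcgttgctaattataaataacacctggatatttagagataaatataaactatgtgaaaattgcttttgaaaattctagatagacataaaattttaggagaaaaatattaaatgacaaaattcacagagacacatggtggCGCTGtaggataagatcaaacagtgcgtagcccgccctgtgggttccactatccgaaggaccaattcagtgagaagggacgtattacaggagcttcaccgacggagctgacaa
Pcdhgc3: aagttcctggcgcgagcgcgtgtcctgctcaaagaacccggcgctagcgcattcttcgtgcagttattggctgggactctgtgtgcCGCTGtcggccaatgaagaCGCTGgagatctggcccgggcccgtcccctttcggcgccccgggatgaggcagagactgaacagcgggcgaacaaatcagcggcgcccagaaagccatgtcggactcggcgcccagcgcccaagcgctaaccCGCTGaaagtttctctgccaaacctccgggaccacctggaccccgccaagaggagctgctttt
Pcdha4: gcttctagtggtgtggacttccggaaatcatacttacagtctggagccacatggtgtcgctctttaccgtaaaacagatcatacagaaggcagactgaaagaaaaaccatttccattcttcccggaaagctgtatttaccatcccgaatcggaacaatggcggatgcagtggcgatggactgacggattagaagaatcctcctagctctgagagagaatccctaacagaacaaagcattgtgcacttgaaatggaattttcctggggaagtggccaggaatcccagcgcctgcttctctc

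The word CGCTG, searched on both strands, was in 25 of the 29 member windows (86.2%), against 37.0% of 33469 rat promoters of the same length. The Pcdha4 window has it on the other strand, and so shows no capitals. The 10 bases most often shared by the beta promoters were GGTGGCGCTG, which hold CGCTG at their end. They were found in 14 of 15 beta promoters and in none of the 13 gamma windows, against 0.221% of all promoters. The 10 bases most often shared by the gamma promoters, GCTGTTCACC, were in 6 of 13 gamma windows and in 0.12% of all promoters. In 12 of the 14 beta promoters with the shared word, CGCTG began 41 to 93 bases before the gene start. In the other two, Pcdhb6 and Pcdhb8, it began 224 and 203 bases before it. The beta promoter without the word was that of Pcdhb1, which had no count in any library, and Pcdhb6 and Pcdhb8 had 13 counts each over the 6 libraries. Low counts were also found with the word in the more common place, as in Pcdhb2 and Pcdhb4, with 36 and 60 counts and the word 66 and 64 bases before the start. Below are 30 bases around the word in beta members with high counts, in the members with the largest and the lowest fold changes, and in Pcdhb6 and Pcdhb8.
Pcdhb6, chr18:29320157-29320186: cacacggtggCGCTGcagtctaaggatttg
Pcdhb7, chr18:29329003-29329032: cgcagggtggCGCTGcaggctaagattgtg
Pcdhb8, chr18:29339263-29339292: cacacggtggCGCTGcagtctaaggatttg
Pcdhb9, chr18:29379253-29379282: cacagggtggCGCTGcaggctaagattgtg
Pcdhb12, chr18:29413653-29413682: cgcttggtggCGCTGcaggctaagaatatg
Pcdhb14, chr18:29431814-29431843: cgcttggtggCGCTGcaggctaagaaaact
Pcdhb19, chr18:29478769-29478798: cacatggtggCGCTGcaggataatgttaca
Pcdhb20, chr18:29485815-29485844: cacatggtggCGCTGtaggataagatcaaa

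In the gamma cluster the windows with CGCTG followed by T are shown for Pcdhgc3, for the A-type members named for their fold change, and for Pcdhgb8. CGCTGT, which holds CGCTG, was in 10 of 13 gamma windows on either strand and in 9.4% of all promoters. A match of letters is a description of the window and not a binding site.
Pcdhga8, chr18:29805005-29805034: ctctaagcgcCGCTGttcacctgctaagag
Pcdhga9, chr18:29815788-29815817: ctctgagcgcCGCTGttcaccaactgtaag
Pcdhgb8, chr18:29839501-29839530: ctctgggcgcCGCTGttgtccaattcgctg
Pcdhgc3, chr18:29884071-29884100: ctctgtgtgcCGCTGtcggccaatgaagac

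The 6 libraries held 14024997 to 16764584 counts, of which 2470 to 4785 fell in member rows. Levels are given as CPM, the count relative to library size after scaling by the trimmed mean of M-values (TMM), and 3 counts, taken as the floor of detection, were worth 0.178 to 0.215 CPM. Veh replicate 3 stood apart from its group. Over 9136 genes the chi-square per gene between libraries was 38.1 and 33.7 for Veh replicate 3 against Veh replicates 1 and 2, but 7.80 between those, and 6.48 to 9.07 within the Hcy group. Values without Veh replicate 3 are therefore given beside the cluster sums, the counts over the family and most of the members described. The endothelial markers listed for this work summed to 10990 to 11400 CPM in Hcy and 9614 to 11050 CPM in Veh libraries, led by Vwf, the von Willebrand factor gene, at 2940, 3003 and 2858 CPM in Hcy and 2533, 2355 and 1976 CPM in Veh replicates 1, 2 and 3. Of the 14 found by name, Cldn5, the main claudin of brain endothelium, was listed at 0 in all 6 libraries. Of the 13 tested, 7 had a log2 fold change above 0 and 6 below it, where 46.9% of all genes were above 0. Vwf, Flt1, Kdr and Tie1 were higher in all Hcy libraries, at 0.359, 0.255, 0.374 and 0.108. Tek, Eng, Slc2a1 and Slco1a4 were lower in all of them, at -0.244, -0.269, -0.321 and -0.535.

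Of the 38 members, 35 had at least 10 counts summed over the libraries and entered the fit, which were 1 alpha, 16 beta and 18 gamma rows. Pcdhb1 and both rows named Pcdha4 did not. The family was dominated by the row named Pcdhgc3, after a C-type gamma gene. This row held 66.8% to 68.9% of all member counts in each library. Per kb of row length, its mean over the 6 libraries was 33.2 CPM per kb. The next were Pcdhgb7, Pcdhgb5 and Pcdhb20, at 3.38, 2.85 and 2.60 CPM per kb. The median over the gamma rows was 0.988 CPM per kb and that over the 16 beta rows with a count 0.525 CPM per kb, while no alpha row passed 0.0330 CPM per kb. The highest alpha row, Pcdha13, has a listed length of 27070 bases. Its value per kb therefore does not compare with those of the shorter beta and gamma rows. Of the tested rows, 6 had under 60 counts, namely Pcdhb2, Pcdhb6, Pcdhb8, Pcdhgb1, Pcdhga4 and Pcdhga5, and their fold changes carry standard errors of 0.504 or more.

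**Figure D1:**
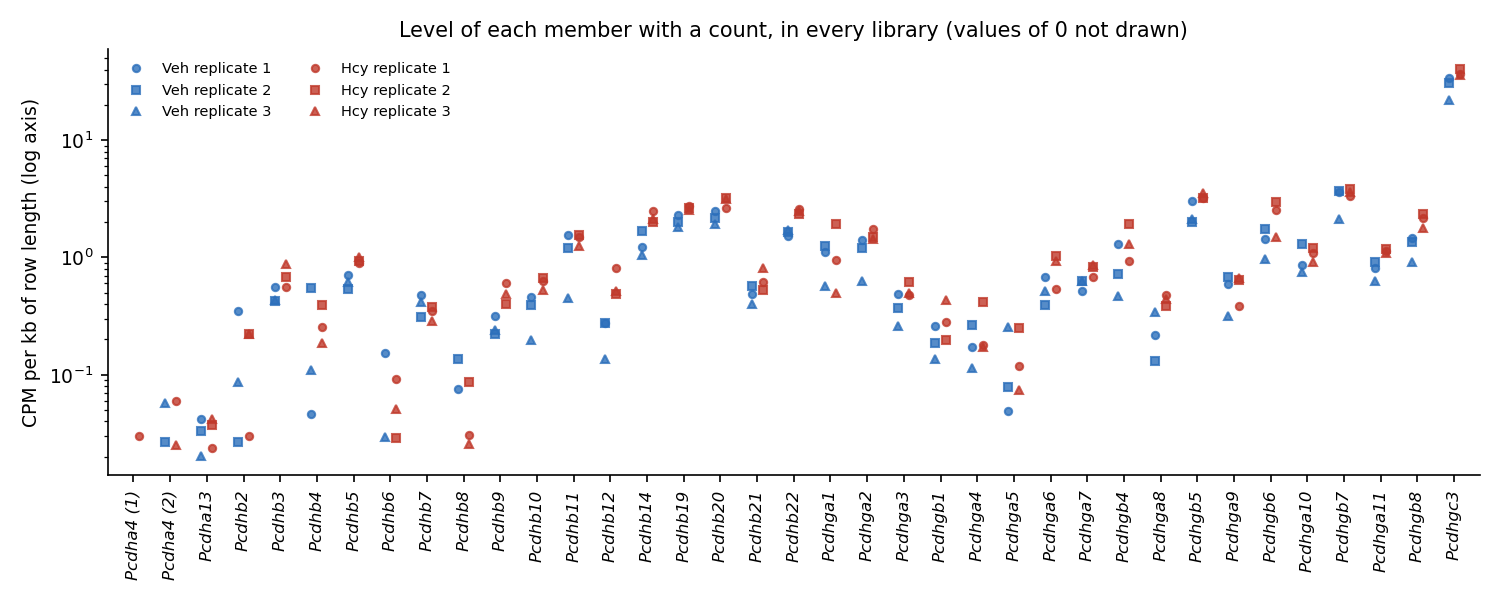
Level of every member with at least 1 count, in CPM per kb of row length on a log axis, in the order of the rows along the chromosome, with 1 point per library (Veh blue, Hcy red, shapes for replicates). The Pcdhgc3 points lie above those of all other members, and the 3 alpha rows lie at the low end. Pcdha13 is divided by a listed length of 27070 bases, so its height does not compare with the other rows. The 2 rows named Pcdha4 are told apart by a number.

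How the rows divide the reads bears on these levels. On chromosome 18 as the table lists it, with no build named, the alpha rows ran from 29966245 to 30215897, the beta rows from 30283675 to 30595181 and the gamma rows from 30808404 to 30969361. No member row overlapped another by the listed positions, and most gamma rows spanned only their variable exon, with listed lengths near those of Pcdhga1 (2421 bases) and Pcdhgb7 (2421 bases). The Pcdhgc3 row (ENSRNOG00000019799) ran from 30913842 to 30969361, with a listed length of 5288 bases, and so reached over the end of the cluster, where the constant exons lie. Reads in those exons come from every gamma transcript but can be counted in the Pcdhgc3 row alone. In RefSeq (GRCr8), 12 of 15 gamma genes ended at the same base, while each of the 20 beta genes had an end of its own. By the listed positions the Pcdhgc3 row starts soon after the Pcdhgb8 row, which runs from 30909490 to 30912592. In RefSeq the promoter windows of Pcdhgb8 and Pcdhgc3 lie further apart, starting at 29839310 and 29883995. The row may thus also hold exons upstream of the Pcdhgc3 promoter. Its value is best read as that of a merged row with the constant region. A count of the Pcdhgc3 variable exon was not analysed here. Counts are summed per cluster below for the same reason. In these bulk libraries, fewer cells making a transcript and less of it per cell cannot be told apart.

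The summed beta level set the groups apart, with all Hcy libraries above all Veh libraries. It was 45.8, 45.5 and 45.2 CPM in Hcy replicates 1, 2 and 3, and 35.5, 33.0 and 26.0 CPM in Veh replicates 1, 2 and 3. The means were 45.5 ± 0.289 and 31.5 ± 4.91 CPM (SD, n = 3 each), a ratio of 1.45, or 0.53 on the log2 scale. The Hcy libraries lay within a CPM of each other, whereas the Veh libraries were spread out, with replicate 3 lowest. Without Veh replicate 3 the ratio was 1.33 (log2 0.41), and the groups still did not overlap.

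The gamma rows summed to 241, 274 and 239 CPM in the Hcy libraries and to 221, 203 and 144 CPM in the Veh libraries. Here too no Veh library reached the lowest Hcy library, and Veh replicate 3 was at 0.681 times the mean of the other two. The means were 252 ± 19.6 and 189 ± 40.2 CPM (SD, n = 3 each), a ratio of 1.33 (log2 0.41). Without Veh replicate 3 the ratio came down to 1.19 (log2 0.25). A-type and B-type variable exons gave ratios of 1.32 and 1.41, and 1.19 and 1.25 without that library. Their groups did not overlap in either case.

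The alpha rows together held 10 to 20 counts a library. Their sum was 0.862, 1.01 and 1.19 CPM in the Hcy libraries and 1.13, 0.956 and 0.692 CPM in the Veh libraries, so the groups overlapped. The ratio was 1.10 with all libraries and 0.98 without Veh replicate 3. At this depth no difference in the alpha cluster was detectable.

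**Figure D2:**
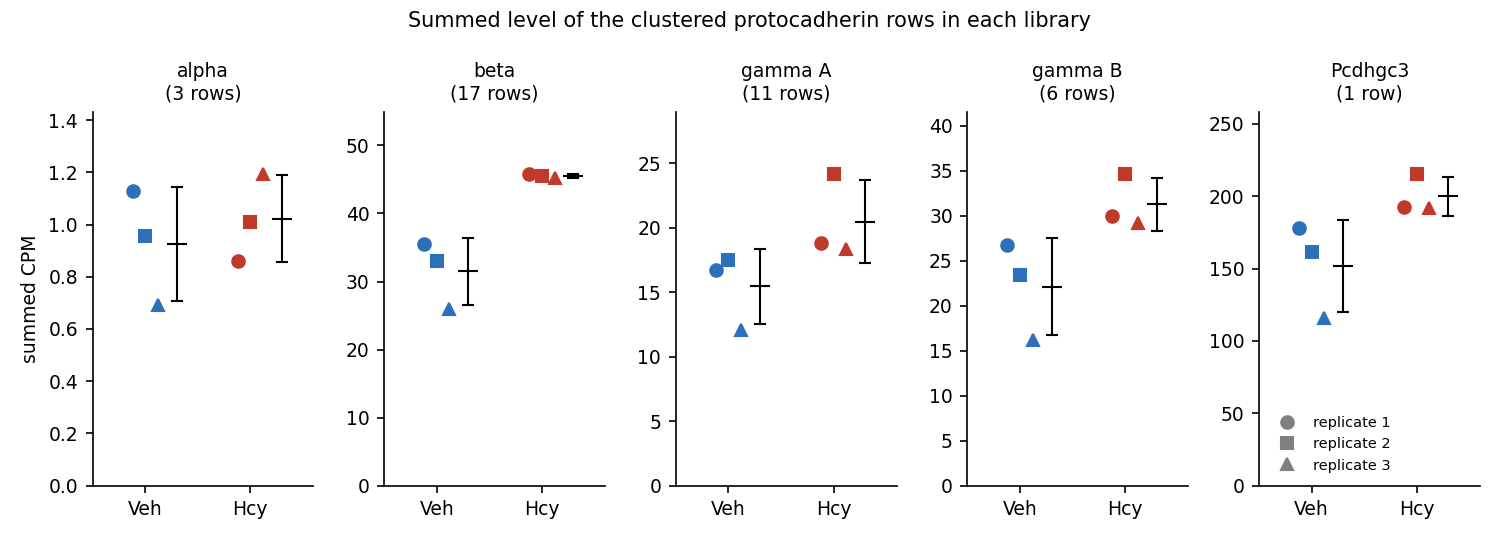
Summed CPM of the alpha, beta, gamma A, gamma B and Pcdhgc3 rows in each Veh (blue) and Hcy (red) library, on linear axes from 0 that differ between panels. Bars give the mean and SD of 3 libraries. In all panels but alpha the lowest Hcy library lies above the highest Veh library, and Veh replicate 3 (triangle) is the lowest library in every panel.

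Among the gamma members, Pcdhgc3 was at 193, 215 and 192 CPM in the Hcy libraries and at 178, 162 and 116 CPM in the Veh libraries. Its groups did not overlap, and its log2 fold change was 0.40 (SE 0.142), or 0.24 without Veh replicate 3. Pcdhgb5, a B-type isoform, was at 7.76, 7.66 and 8.47 CPM against 7.24, 4.78 and 5.12 CPM. Here Veh replicate 1 came close to the Hcy libraries while the others lay well below, for a log2 fold change of 0.48 (SE 0.187), or 0.40 without Veh replicate 3.

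Pcdhgb7, the most abundant gamma row per length after Pcdhgc3, showed how far a single library can carry a fold change. Its levels were 8.11, 9.27 and 8.83 CPM in the Hcy libraries and 8.79, 8.98 and 5.12 CPM in the Veh libraries. Veh replicates 1 and 2 lay among the Hcy libraries and only replicate 3 was lower. The log2 fold change of 0.19 turned to -0.02 without Veh replicate 3. Pcdhga9 had the smallest gamma change. It stood at 0.934, 1.54 and 1.61 CPM against 1.43, 1.66 and 0.761 CPM, with Veh replicate 2 the highest and Veh replicate 3 the lowest of all libraries. Its log2 fold change was 0.09, or -0.17 without Veh replicate 3, and it was also below 0 without Hcy replicate 2 or 3.

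Pcdhga8 had the largest gamma change. Its levels were 1.15, 0.940 and 1.07 CPM in the Hcy libraries and 0.534, 0.319 and 0.831 CPM in the Veh libraries, where replicate 3 was the highest. The groups did not overlap, and the log2 fold change of 0.91 (SE 0.425) was 1.28 without Veh replicate 3. Pcdhgb8, whose promoter window is shown above, was at 5.24, 5.64 and 4.30 CPM against 3.56, 3.31 and 2.21 CPM. The groups did not overlap, and the log2 fold change was 0.73 (SE 0.232), or 0.55 without Veh replicate 3. Pcdhga2, Pcdhga7 and Pcdhga11 were the other gamma members without overlap, with log2 fold changes of 0.52, 0.42 and 0.52, which were 0.25, 0.47 and 0.39 without Veh replicate 3.

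Other gamma members varied as much within a group as between groups. Pcdhga1 ranged from 1.19 to 4.70 CPM among the Hcy libraries, with replicate 2 highest and replicate 3 lowest of all 6 libraries. Its log2 fold change of 0.19 went to -0.46 without Hcy replicate 2. Pcdhgb4 and Pcdhgb6 had larger log2 fold changes, at 0.73 and 0.72, but their groups overlapped: Hcy libraries ran from 2.23 to 4.57 CPM and from 3.58 to 7.12 CPM, and Veh libraries from 1.11 to 3.09 CPM and from 2.35 to 4.27 CPM. Without Veh replicate 3 they were at 0.45 and 0.52, and Pcdhgb4 was at 0.43 without Hcy replicate 2 and 1.22 without Veh replicate 1. Pcdhga3, Pcdhga6 and Pcdhga10 overlapped too, with log2 fold changes of 0.49, 0.64 and 0.14, which were 0.29, 0.62 and -0.01 without Veh replicate 3. The 3 gamma rows with under 60 counts, Pcdhgb1, Pcdhga4 and Pcdhga5, lay at 0.64, 0.46 and 0.22, with standard errors of 0.504 to 0.768. Pcdhga4 was at -0.07 and Pcdhga5 at -0.39 without Hcy replicate 2, Pcdhga5 was at 1.16 without Veh replicate 3, and Pcdhgb1 was at 0.28 without Hcy replicate 3.

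Of the beta members, Pcdhb20 had the most counts. It was at 8.90, 10.9 and 10.6 CPM in the Hcy libraries and at 8.43, 7.39 and 6.51 CPM in the Veh libraries. Its groups did not overlap, and its log2 fold change was 0.44 (SE 0.154), or 0.36 without Veh replicate 3. Pcdhb19, just before it in the cluster, was at 6.68, 6.31 and 6.09 CPM against 5.58, 4.84 and 4.36 CPM. All its Hcy libraries were higher, by a log2 fold change of 0.36 (SE 0.165), or 0.28 without that library.

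Pcdhb22, at the end of the beta cluster, differed from these in that Veh replicate 3 was not its lowest library. It was at 6.18, 5.64 and 5.91 CPM in the Hcy libraries and at 3.62, 3.95 and 4.08 CPM in the Veh libraries. The groups were well apart, and the log2 fold change was 0.60 (SE 0.164) with all libraries and 0.64 without Veh replicate 3. Across the 6 settings that leave out 1 library it ran from 0.56 to 0.64.

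The largest beta changes were in less abundant members. Pcdhb12 was at 2.44, 1.48 and 1.55 CPM in the Hcy libraries and at 0.831, 0.828 and 0.415 CPM in the Veh libraries, on 115 counts in all. The lowest Hcy library was above the highest Veh library, and the log2 fold change of 1.37 (SE 0.380) was 1.12 without Veh replicate 3. It was the one member with a fitted change of more than 1 in size over all 6 libraries. Pcdhb9 was at 1.94, 1.28 and 1.55 CPM against 1.01, 0.701 and 0.761 CPM, again without overlap, with a log2 fold change of 0.93 (SE 0.326), or 0.88 without Veh replicate 3. Its neighbour Pcdhb10 had 0.78 and Pcdhb14 0.73, and Pcdhb3 and Pcdhb5 had 0.59 and 0.60, all with Hcy libraries above all Veh libraries. Pcdhb10 was at 2.08, 1.78 and 0.900 CPM in the Veh libraries, and its value was 0.51 without Veh replicate 3, where that of Pcdhb14 was 0.59.

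Pcdhb6, Pcdhb7 and Pcdhb8, which lie beside each other, were the 3 tested members with a log2 fold change below 0. Pcdhb7 was at 0.862, 0.940 and 0.716 CPM in the Hcy libraries and at 1.19, 0.765 and 1.04 CPM in the Veh libraries. The groups overlapped, and the log2 fold change was -0.25 (SE 0.352), with values of -0.41 to -0.10 when 1 library was left out. Pcdhb6 and Pcdhb8 had fitted values of -0.14 and -0.58 with standard errors of 1.09 and 1.06, and no library of either held more than a few counts. Pcdhb6 ran from -0.70 to 0.15 and Pcdhb8 from -1.27 to -0.27 over the fits with 1 library left out that still held them. Their printed promoter windows hold the same 30 bases, and reads from near-identical beta genes may have been counted in either row or left out. Pcdhb11 and Pcdhb21 overlapped with log2 fold changes of 0.41 and 0.43, the former 0.05 without Veh replicate 3 and the latter 0.23 without Hcy replicate 3.

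Pcdhb2 and Pcdhb4 varied widely between replicates. Pcdhb4 was at 0.119, 1.40 and 0.277 CPM in Veh replicates 1, 2 and 3, so that Veh replicate 2 was the highest and Veh replicate 1 the lowest of all libraries. Its log2 fold change of 0.24 was 1.82 without Veh replicate 2 and -0.26 without Veh replicate 1. Pcdhb2 was at 0.831, 0.0637 and 0.208 CPM in the Veh libraries. Its value of 0.05 was 1.49 without Veh replicate 1 and -0.44 without Veh replicate 2.

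In the alpha cluster, the row named Pcdha13 (ENSRNOG00000020119) held 84 of the 91 counts. Its listed protein match is Protocadherin alpha-C2. With a listed length of 27070 bases, it reaches over the rest of the cluster. It too can take reads of the constant exons, and also those of other variable exons within its span. It was at 0.646, 1.01 and 1.13 CPM in the Hcy libraries and at 1.13, 0.892 and 0.554 CPM in the Veh libraries. The groups overlapped, and the log2 fold change of 0.11 was -0.11 without Veh replicate 3. Of the rows named Pcdha4, that matched to alpha-3 (ENSRNOG00000050378) had 1 count and that matched to alpha-4 (ENSRNOG00000047174) had 6, which is below what can be compared.

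Counted over the family, 32 of the 35 tested members had a log2 fold change above 0, which were 1 alpha, 13 beta and all 18 gamma rows, where 46.9% of all 14603 genes tested did. The median log2 fold change was 0.46 over the members, 0.44 over the beta rows and 0.48 over the gamma rows, beside -0.01 over all genes. All Hcy libraries lay above all Veh libraries in 16 members, 9 beta and 7 gamma, and in 10.8% of all genes. An unadjusted p under 0.05 with higher Hcy levels was given to 11 members, and to 7.44% of all genes. No member passed an adjusted p of 0.05 in edgeR's quasi-likelihood test, which 2.34% of all genes did. None therefore met that threshold with a log2 fold change of at least 1 in size, as 0.486% of genes did, nor did any in DESeq2, where 0.644% of genes did. In DESeq2, 7 of the 35 members had no adjusted p and so could not be called. The contrast had chosen the family, so nothing is read from these counts.

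Veh replicate 3 moved with these numbers. It was the lowest of the 6 libraries for 21 of the 35 members, 12 of them gamma rows, and for 23.5% of all genes. Without it, 25 members had a log2 fold change above 0 (49.4% of all genes) and their median was 0.36 (0.00 over all genes). The groups did not overlap for 16 members (19.5% of all genes), which were 9 beta and 7 gamma rows, and none was called by edgeR (0.78% of all genes). The part of this library in the results was not tested beyond leaving it out.

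**Figure D3:**
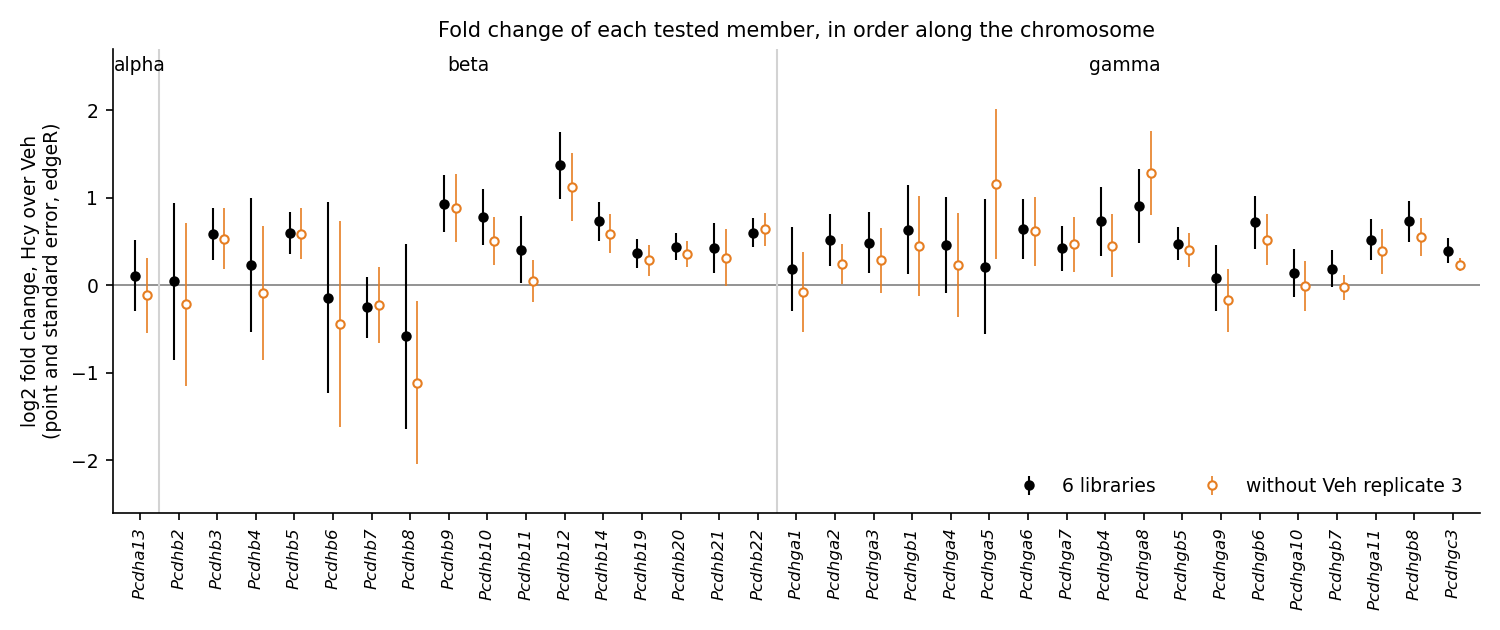
Fitted log2 fold change of Hcy over Veh with its standard error (edgeR) for each of the 35 tested members, in order along the chromosome, with all 6 libraries (black) and without Veh replicate 3 (open orange). Most black points lie above 0, Pcdhb6 to Pcdhb8 lie below it, and 25 orange points lie above it.

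The name rule missed 8 rows that lie within the clusters and whose listed protein match is a clustered protocadherin. RefSeq names LOC108348201 Pcdhb15, LOC108348771 Pcdhb16 and LOC108348233 Pcdhb6l, and the others carry clone names. Per length, LOC108348201 was more abundant than any beta member, with a mean of 6.25 CPM per kb. It was at 16.9, 17.1 and 18.0 CPM in the Hcy libraries and at 13.0, 13.2 and 10.3 CPM in the Veh libraries. The groups were apart, with a log2 fold change of 0.51 (SE 0.126), or 0.41 without Veh replicate 3. LOC108348233 was at 2.23, 2.22 and 2.51 CPM against 1.19, 1.02 and 0.900 CPM, a log2 fold change of 1.15 (SE 0.262). All 6 of these rows that entered the fit had a log2 fold change above 0, with a median of 0.44, and none passed an adjusted p of 0.05 in edgeR's test. In DESeq2 1 did, LOC108348201 (adjusted p = 0.0341). The share of all genes past that threshold in DESeq2 at any fold was not counted here, so nothing is read from this row. With them, the beta ratio was 0.52 and the gamma ratio 0.41 on the log2 scale, an alternative added after seeing the data.

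The other genes of the locus were taken as those within 500 kb of the outermost members or between them. Of the 28 that entered the fit, 15 had a log2 fold change above 0 and 13 below, with a median of 0.02. On the alpha side, 4 of 13 were above 0, and beyond the gamma cluster 7 of 11, with medians of -0.05 and 0.05. Arap3, a regulator of small GTPases beyond the gamma cluster and the most abundant of them, was at 199, 196 and 208 CPM in the Hcy libraries against 205, 195 and 184 CPM in the Veh libraries. Its groups overlapped, at a log2 fold change of 0.05 (SE 0.070).

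The 4 tested genes lying between the beta and gamma members, or among them, all had values above 0. Taf7, which encodes a subunit of the general transcription factor TFIID, was at 12.1, 13.5 and 14.3 CPM against 11.3, 13.1 and 12.5 CPM and overlapped. Slc25a2, a mitochondrial carrier gene, was at 1.15, 1.28 and 1.85 CPM against 1.07, 1.08 and 0.761 CPM. RGD1563159 was at 0.646, 1.28 and 0.955 CPM against 0.594, 0.446 and 0.485 CPM. The fourth was a snoRNA row with 10 counts. None of the 4 passed an adjusted p of 0.05 in edgeR's test, and none had an unadjusted p under 0.05. Of all 28 neighbours, 1 passed the adjusted p, namely Pcdh12 beyond the gamma cluster, where 2.34% of all genes passed it.

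**Figure D4:**
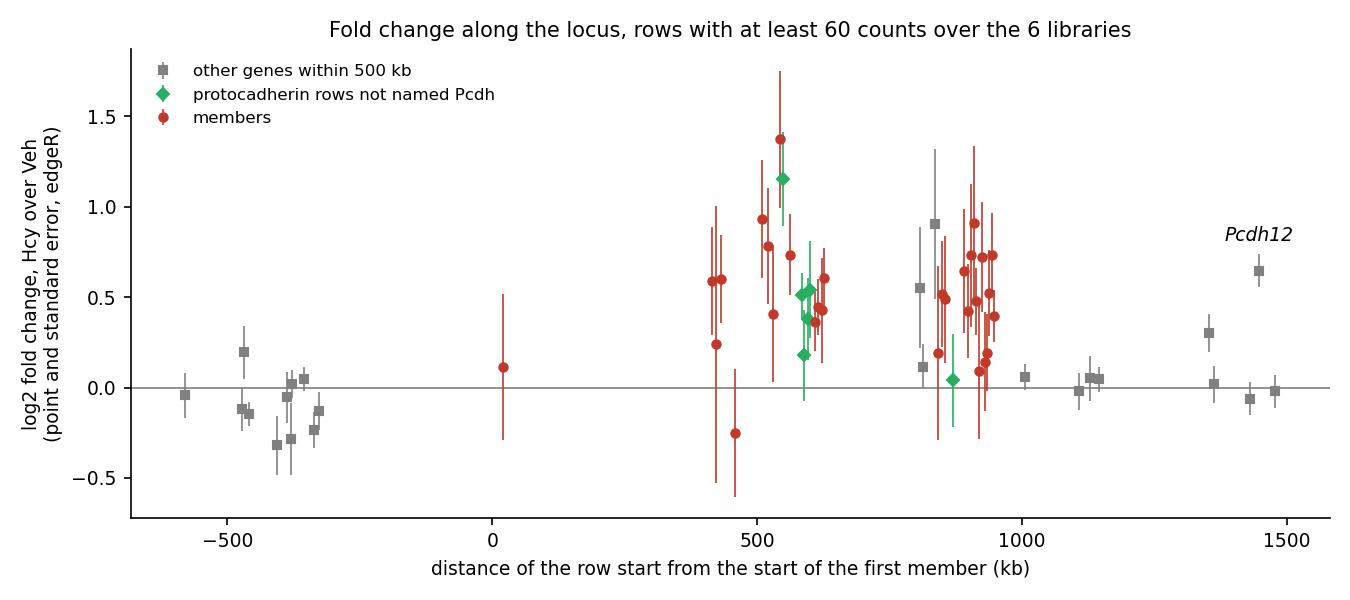
Fitted log2 fold change with its standard error (edgeR, 6 libraries) against the distance in kb of the row start from that of the first member, for rows with at least 60 counts: members (red circles), protocadherin rows not named Pcdh (green diamonds) and other genes of the locus (grey squares). The grey squares before and beyond the clusters lie between -0.32 and 0.30 except Pcdh12 at 0.65, while most red and green points lie above 0.

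Pcdh12, a single-copy protocadherin found at the junctions of endothelial cells and named here after its values were seen, rose in Hcy cells. It was at 149, 149 and 143 CPM in the Hcy libraries and at 104, 94.7 and 82.7 CPM in the Veh libraries. The groups were far apart, with a log2 fold change of 0.65 (SE 0.091, adjusted p = 0.0108 in edgeR's quasi-likelihood test), or 0.56 without Veh replicate 3. The adjusted p was 0.0559 to 0.0616 when any Hcy library was left out. Pcdh1, the most abundant non-clustered protocadherin, lies near it and was at 186, 184 and 185 CPM against 203, 192 and 154 CPM. Its groups overlapped, at a log2 fold change of 0.02, but without Veh replicate 3 the Hcy libraries were all lower, at -0.09. Of the 11 non-clustered protocadherins and relatives that entered the fit, 1 rose, none fell, and the median was 0.02. Both counts are at that adjusted p of 0.05 in edgeR's test, which 2.34% of all genes passed.

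The genes known to act on the clusters were listed as CTCF, the cohesin subunits and their loaders, DNA methyltransferases and demethylases, and repressors that bind there. Of the 24 tested, 3 rose, none fell, and the median log2 fold change was -0.02. These counts are at an adjusted p of 0.05 in edgeR's test, which 2.34% of all genes passed. The 3 were Uhrf1, Dnmt1 and Smc1a, named because they passed. Uhrf1, which brings the maintenance methyltransferase to newly copied DNA, was at 40.1, 40.9 and 35.3 CPM in the Hcy libraries and at 22.7, 23.4 and 21.0 CPM in the Veh libraries. Its log2 fold change was 0.79 (SE 0.095, adjusted p = 0.00483, edgeR), and it passed with each library left out in turn.

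Dnmt1, the maintenance methyltransferase itself, was at 75.2, 75.5 and 69.6 CPM against 54.2, 52.8 and 55.2 CPM. Its log2 fold change was 0.44 (SE 0.072, adjusted p = 0.016, edgeR), and the adjusted p was 0.0692 to 0.094 when any library but Veh replicate 3 was left out. Smc1a, a core cohesin subunit, was at 144, 162 and 154 CPM against 120, 118 and 117 CPM. Its log2 fold change was 0.37 (SE 0.071, adjusted p = 0.0311, edgeR), with adjusted p of 0.081 to 0.169 when any library but Veh replicate 3 was left out.

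The other regulators did not pass. Ctcf, the insulator protein of the promoter element, was at 50.9, 50.7 and 53.4 CPM in the Hcy libraries and at 58.5, 55.7 and 51.5 CPM in the Veh libraries. Its groups overlapped through Veh replicate 3, at a log2 fold change of -0.10 (SE 0.076), and without that library the Hcy levels were all lower, at -0.14. Trim28, a corepressor and the most abundant of the list, was at 222, 195 and 215 CPM against 216, 197 and 218 CPM and overlapped. It had a log2 fold change of 0.01, and Smchd1, which silences the clusters, had -0.04.

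Proteins that work beneath the membrane with protocadherins, such as focal adhesion kinases, the WAVE complex and the proteases that cut the proteins, gave 20 tested genes. None passed an adjusted p of 0.05 in edgeR's test, as 2.34% of all genes did, and the median log2 fold change was 0.00. The 3 with an unadjusted p under 0.05 in that test were Fyn and Cyfip2, higher in Hcy, and Src, lower. Of all genes, 7.44% had such a p with higher Hcy levels, and the share with lower levels was not counted. Rhoa, the small GTPase with the most counts of the list, was at 933, 921 and 903 CPM against 872, 825 and 947 CPM, and overlapped through Veh replicate 3. The log2 fold change was 0.06, or 0.12 without that library.

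Because the family is best known from neurons, markers of other cells that such a culture could hold were summed in each library. The neuron list reached 7.19 to 9.98 CPM in Hcy and 5.42 to 7.54 CPM in Veh libraries, and all 3 of its tested genes had a log2 fold change above 0. Most of it was Tubb3, a neuronal tubulin gene, at 7.33, 5.10 and 6.45 CPM against 5.82, 4.14 and 5.19 CPM. Syt1, a synaptic vesicle gene, was at 2.44, 1.75 and 2.63 CPM against 1.36, 1.08 and 1.31 CPM, without overlap and with an adjusted p of 0.195 (edgeR). In contrast, 4 of its 9 genes were at 0 in all libraries, among them Rbfox3, Snap25 and Map2. The astrocyte list was lower in Hcy, at 113 to 116 CPM against 126 to 150 CPM, with Aqp4 and Slc1a2 at 0. Nearly all of it was Gja1, a connexin gene, at 113, 116 and 115 CPM against 144, 150 and 125 CPM. Microglial and oligodendrocyte lists summed to 2.02 to 3.09 CPM and 10.6 to 12.4 CPM over the Hcy libraries, and 2.196 to 2.74 CPM and 11.3 to 11.4 CPM over the Veh libraries. Their most abundant genes were Cd68, at 2.23, 1.14 and 1.13 CPM against 0.831, 1.27 and 0.554 CPM, and Mog, at 9.70, 9.47 and 10.4 CPM against 9.91, 9.94 and 9.83 CPM. Cd68 was the 1 tested microglial gene with a log2 fold change above 0, at 0.74, while 3 were below 0. Their median was -0.36, and Tmem119 was lower in all Hcy libraries, at -0.81. Of the tested oligodendrocyte genes, 1 was above 0 and 2 below.

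The 6 fibroblast genes found in the table summed to 303 to 383 CPM in Hcy and 183 to 296 CPM in Veh libraries, and 4 of 5 tested genes had a log2 fold change above 0, none past an adjusted p of 0.05 in edgeR's test. Most of the sum was Col15a1, at 234, 317 and 313 CPM against 215, 117 and 88.2 CPM, while Dcn held 6 counts over all libraries. Col1a1, a fibrillar collagen gene and the next in size, was lower in Hcy, at 54.4, 34.2 and 55.6 CPM against 69.1, 55.8 and 82.0 CPM. The summed pericyte and smooth muscle list was lower in Hcy, at 96.8 to 110 CPM against 128 to 172 CPM, although 6 of its 9 genes had a log2 fold change above 0, with a median of 0.55. Nearly all of the sum was Acta2, smooth muscle actin, at 103, 93.2 and 90.7 CPM against 159, 123 and 166 CPM. It fell by 0.64 on the log2 scale (adjusted p = 0.0248, edgeR). That adjusted p was 0.0816 to 0.146 when any Hcy library or Veh replicate 1 was left out. Cspg4, which encodes the pericyte proteoglycan NG2, was at 1.15, 0.604 and 0.537 CPM against 0.297, 0.191 and 0.208 CPM, and Rgs5 and Pdgfrb had log2 fold changes of 1.26 and 0.72. None of these 3 passed an adjusted p of 0.05 in edgeR's test. Kcnj8, of the same list, was lower in all Hcy libraries, at 0.359, 0.403 and 0.239 CPM against 0.416, 0.828 and 0.761 CPM. Its log2 fold change was -0.99, that of Myh11 was -0.04, and neither passed. The part of these cells in the protocadherin values was not tested.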

How the data were processed

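The authors deposited a table of whole-number read counts per gene for the 6 libraries, used here, and a table of their own comparison (fold changes and p-values), not used. The submitters' processing notes name fastp, HISAT2 2.2.1, StringTie 2.2.3, featureCounts 2.0.6 and DESeq2 1.42.0, and the build mRatBN7.2. The positions in the table reach 282724300 on chromosome 1, past the end of that chromosome in mRatBN7.2, so row positions are given as listed, with no build. Whether counting used strand, or how reads in shared exons were treated, is not given in the sources used here. The 14603 of 33566 genes whose counts added up to 10 or more were fitted together by edgeR 4.0.16 (R 4.3.3) with TMM scaling and the quasi-likelihood test on condition alone, with Benjamini-Hochberg adjustment over all of them, and a gene was called at an adjusted p of 0.05 or less with a log2 fold change of at least 1 in size. Libraries held 14024997 to 16764584 counts, and precision of single members is set by their own counts. Standard errors were taken from the log2 fold change and its F statistic. On simulated counts, recovery was taken at an adjusted p of 0.05 or less at any fold, not at the rule for calls. Of 200 genes changed by 1 on the log2 scale 142 were recovered, and 179 of 200 changed by 2. Beside them, 11 and 16 unchanged genes passed. The changed genes had at least 60 counts, and no simulated library stood apart as Veh replicate 3 did. The recovery thus does not cover members with fewer counts. The alternatives were DESeq2, scaling by its size factors or by library totals, other count minimums, the replicate number as a block, sums without their most abundant member, and leaving out each library.

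The members and the gene lists were chosen with earlier results of these data known. Values per library were given by rule for the 3 members of each cluster with the highest mean CPM, the 3 largest and 3 lowest log2 fold changes among members with at least 60 counts, C-type genes, and in other lists the gene with the highest CPM and any called, of which there was none. Other genes with values were chosen after their values were seen. Promoters came from RefSeq (GRCr8), matched by symbol.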

Additional observations from a re-analysis of the deposited data

How the results depend on the processing

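No member was called under any alternative, and the lowest adjusted p of a member ran from 0.0773 in DESeq2 to 0.284 without Hcy replicate 1. Some members had no adjusted p and could not be called: 7 in DESeq2 and 7 under edgeR's own count filter. The same held for 1 member without Veh replicate 1 and for 1 without Veh replicate 2. Unadjusted p under 0.05 was reached by 5 to 13 members. The members above 0 numbered 25 (without Veh replicate 3) to 34 of 37 (at least 1 count summed), and their median log2 fold change ran from 0.36 without Veh replicate 3 to 0.62 without Veh replicate 1. With 1 library left out, the log2 ratio of sums ran from 0.41 to 0.63 for beta, 0.25 to 0.54 for gamma and -0.03 to 0.31 for alpha. Of 411 refitted member values, 403 moved by less than their standard error, 8 moved further and 22 changed sign, in 10 members; the cause was not tested. Deviations of same-numbered libraries correlated at -0.01, 0.24 and 0.06, with a mean of 0.096, against -0.048 for libraries of different number. From 3 libraries per group, these values cannot decide whether the replicate numbers pair the samples. With the replicate block, 33 members were above 0, their median was 0.52, the sums gave 0.16 (alpha), 0.54 (beta) and 0.43 (gamma), and 82 genes of all were called in place of 71. Among the listed genes, Smc1a alone was lost under the block (adjusted p = 0.0667, edgeR). Genes called over the whole table ran from 39 to 112 when 1 library was left out, most without Veh replicate 3, and were 109 with at least 1 count summed and 94 in DESeq2. The alpha sum without its most abundant row was not run, since 7 counts remained.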
